A study of Mus musculus with 8 samples.

Results

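The genes described here are 8 components of the renin-angiotensin system, taken by gene symbol from a table of 26893 genes. They are Agt, Ren1, Ace, Mme, Enpep, Agtr1a, Agtr1b and Atp6ap2, and all 8 had an entry. The samples were whole kidneys of mice aged 45 days, from which 4 poly(A) libraries of WT (C57BL/6) and 4 of Tsc1/Foxi1-dKO mice were sequenced. The dKO mice carried Tsc1 f/f alleles deleted by Aqp2 Cre, which acts in collecting duct principal cells, together with a knockout of Foxi1, the transcription factor needed for intercalated cells. The dKO line was made by crossing Tsc1 knockout with Foxi1 knockout mice, and the WT group is given only as C57BL/6, so that effects of the 2 genes, of the Cre and of the line cannot be told apart in this comparison. Both groups shared the age, the tissue and the sequencing method.

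The renin-angiotensin system is a chain of peptide cuts that controls blood pressure and sodium balance. Angiotensinogen is cut by renin, which is made by juxtaglomerular cells of the afferent arteriole, and the product is cut by angiotensin-converting enzyme to angiotensin II. Angiotensin II acts on AT1 receptors of vessels, glomeruli and tubules, and other peptidases, many of them on the proximal tubule brush border, remove it or make other angiotensins.

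Libraries held between 14791687 and 24973213 counted reads. CPM is the reads of a gene per 1000000 reads of its TMM-scaled library, and 3 reads, taken as the floor, were worth 0.121 to 0.207 CPM. Foxi1 ranged from 26.6 to 33.6 CPM in WT, while dKO replicates 1 to 3 had 1.33 to 1.56 CPM. It reached 45.9 CPM, from 834 reads, in the library labelled dKO replicate 4, which therefore goes against its label for this gene. A list of 8 intercalated cell genes summed to between 392 and 479 CPM in WT, to between 62.4 and 72.8 in the first 3 dKO replicates, and to 576 in the library labelled dKO replicate 4. dKO replicate 1 differed from the other 7 libraries in another way: it had 0 Y-linked reads and 11083 Xist reads, against 2189 to 4380 and 0 to 11 in the others. These are the reads of a female sample in dKO replicate 1 and of male samples in the other 7. The labels give no sex, and sex cannot be told apart here from other traits of that library. Every fit below was therefore repeated without dKO replicate 1, without the library labelled dKO replicate 4 and without both. Whether each library stands for a separate animal is not given in the labels, so the p-values below speak only of the spread between these samples.

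The stretches before the gene starts are shown for Ren1, Agt and Ace because these are the members whose levels moved most between libraries. RefSeq promoter windows (GRCm38.p6, 250 bases before to 50 after the annotated start) matched 7 of the 8 members, with 10 windows in all, and none matched Agtr1a. Capitals mark the letters TATAAA, the TATA box, or their reverse complement TTTATA. The windows are Ren1 at chr1:133350424-133350723 on the plus strand, Agt at chr8:124569657-124569956 on the minus strand and Ace at chr11:105967698-105967997 on the plus strand.
Ren1: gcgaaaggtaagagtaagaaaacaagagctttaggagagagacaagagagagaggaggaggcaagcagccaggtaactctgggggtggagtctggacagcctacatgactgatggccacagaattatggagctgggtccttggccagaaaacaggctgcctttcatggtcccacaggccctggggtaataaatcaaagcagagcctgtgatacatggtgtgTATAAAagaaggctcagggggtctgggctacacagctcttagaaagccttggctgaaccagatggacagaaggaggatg
Agt: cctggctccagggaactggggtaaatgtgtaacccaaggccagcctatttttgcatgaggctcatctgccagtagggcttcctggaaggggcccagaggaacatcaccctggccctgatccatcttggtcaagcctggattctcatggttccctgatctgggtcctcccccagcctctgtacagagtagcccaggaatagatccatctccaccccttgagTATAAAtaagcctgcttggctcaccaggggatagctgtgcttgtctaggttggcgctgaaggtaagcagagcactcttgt
Ace: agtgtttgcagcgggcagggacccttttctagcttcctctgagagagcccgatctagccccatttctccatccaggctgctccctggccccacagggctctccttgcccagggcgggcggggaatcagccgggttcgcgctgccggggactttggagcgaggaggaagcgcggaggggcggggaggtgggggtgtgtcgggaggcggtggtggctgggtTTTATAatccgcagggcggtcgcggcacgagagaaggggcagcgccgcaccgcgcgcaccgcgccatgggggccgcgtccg
Counted from the RefSeq start, the capitals begin 29 bases before it in Ren1, 30 in Agt and 31 in Ace, where the letters are on the opposite strand. The RefSeq start of Ren1 lies 164 bases inside the gene as the table places it, so its capitals are within that gene span, while the starts are the same for Agt and 3 bases apart for Ace. In the Agtr1b window, not printed, TATAAA begins 31 bases before the RefSeq start. A search of both strands found these letters in 5 of the 10 windows and in 5 of the 7 genes, the fifth being Enpep, against 13.6% of the 32851 windows of the table. A steroid receptor half-site (AGAACA) and a cAMP response element half-site (TGACG) were each found in 1 member, Atp6ap2, and are held by 19% and 20.8% of all windows. An HNF1 half-site (GTTAAT) was found in 0 of the 10 windows and is held by 7.1% of all. A second Ace window, inside the gene, held none of the 4 motifs.

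Angiotensinogen, the substrate of the whole chain, is encoded by Agt (ENSMUSG00000031980, chromosome 8, 124556534 to 124569706, minus strand). In the kidney it is known from the proximal tubule, above all its straight segment. Agt was at 60.9, 47.4, 55.9 and 58.4 CPM in WT replicates 1 to 4 and at 2.43, 66.1, 75.3 and 68.7 CPM in the dKO libraries in the same order. dKO replicate 1 was therefore far below every other library, while the other 3 dKO libraries were all above every WT library. The low value rests on 55 reads, against 1144 to 1870 reads in the other dKO libraries. The group means were 55.6 ± 5.86 CPM in WT and 53.1 ± 34.0 CPM in dKO (SD, n = 4 each), and the mean of the other 3 dKO libraries, 70.03 ± 4.76 CPM, was 28.8-fold above dKO replicate 1. Of 14481 genes with a mean of at least 1 CPM in those 3 libraries, 28 (0.193%) were as low as Agt or lower in dKO replicate 1 relative to them.

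With all 8 libraries the log2 fold change of Agt, dKO over WT, was -0.07 with a 95% interval from -1.98 to 1.84 (adjusted p = 0.982, edgeR quasi-likelihood test with Benjamini-Hochberg adjustment over 15912 genes). The interval spans a fall and a rise of more than 3-fold (fold 0.254 to 3.59), so this fit does not give a direction. Without dKO replicate 1 the log2 fold change was 0.33 with an interval from 0.12 to 0.55, and the adjusted p was 0.0987, short of the threshold of 0.05. Other transcripts of the straight proximal tubule were also low in dKO replicate 1. The 5 genes of a proximal tubule S3 list had sums between 4129 and 4987 CPM in WT and between 3085 and 3911 in the other 3 dKO libraries. The sum was 642 CPM in dKO replicate 1, which had the lowest value of all 8 libraries for 5 of 5. That count was not taken over all genes, and is not read as a trait of these transcripts. The part of these transcripts, of the Xist and Y-linked reads or of that library in the value of Agt was not tested. In these bulk libraries fewer cells of a type and less RNA per cell cannot be told apart.

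Renin is the enzyme that starts the chain, and C57BL/6 mice carry Ren1 and lack Ren2. Ren2 had no entry in the table, which does not show whether the dKO line carries it. The strain background of that line is not given in the labels, and any Ren2 reads would have had no entry of their own. Ren1 (ENSMUSG00000070645, chromosome 1, 133350510 to 133360325, plus strand) was at 123, 161, 99.7 and 101 CPM in WT replicates 1 to 4. In the dKO libraries it was at 212, 104, 130 and 65.8 CPM. The dKO group held both the highest library of the 8, dKO replicate 1, and the lowest, the library labelled dKO replicate 4, and WT lay between them. The highest dKO library was 3.23 times the lowest, against 1.62 times in WT, and the coefficient of variation was 48.5% in dKO and 23.7% in WT. The group means were 121 ± 28.7 CPM in WT and 128 ± 62.2 CPM in dKO (SD, n = 4 each). Its fitted log2 fold change was 0.08 with a 95% interval from -0.70 to 0.86 (adjusted p = 0.943, edgeR with Benjamini-Hochberg adjustment), or from 0.616-fold to 1.81-fold. Without dKO replicate 1 it was -0.28 (adjusted p = 0.741, edgeR), which turns the direction.

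Genes of renin cells and their neighbours were also described, by list. A list of 10 renin cell genes was used, among them the gap junction gene Gja5 and Akr1b7, a known marker of renin cells. Their sum lay between 249 and 263 CPM in the WT group. It was 397 CPM in dKO replicate 1 and lay between 274 and 306 in the remaining dKO libraries. All 10 had a positive log2 fold change, with a median of 0.28 against 0.01 over all tested genes. However, 0 passed the threshold in edgeR and 3 had an unadjusted p under 0.05. Over all tested genes, 2667 of 15912 had an unadjusted p under 0.05 in edgeR. Without dKO replicate 1, or without the library labelled dKO replicate 4, 8 of 10 were positive, and without both 6 of 10, with a median of 0.098. In the macula densa list, the tubular cells that signal to renin cells, the sum of 6 genes lay between 921 and 1144 CPM in the WT group. It lay between 1279 and 1732 CPM in the dKO group. The list includes Slc12a1, which is not confined to macula densa cells, and the part of each gene in the sum was not separated. Of these 6 genes, 0 passed the threshold in edgeR and 2 had an unadjusted p under 0.05. Without the library labelled dKO replicate 4, 1 passed upward, Nos1, which encodes the neuronal nitric oxide synthase of macula densa cells. In that fit 157 of 16209 genes passed upward. Neither sum overlapped between the groups, whereas Ren1 itself did. By single gene, 3 of the 10 renin cell genes and 1 of the 6 macula densa genes had all dKO above all WT libraries. In neither list did a gene have all dKO below all WT libraries. Over all tested genes, 6.06% had all dKO above all WT libraries. In dKO replicate 1, the highest Ren1 library, podocyte genes (687 CPM against 363 to 466 CPM in the other 7 libraries), mural genes (339 against 184 to 233 CPM) and endothelial genes (744 against 453 to 614 CPM) were also higher in sum, and their part in the Ren1 value was not tested.

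The 3 protein-coding genes whose pattern over the 8 libraries was most like that of Ren1 were St3gal5, a sialyltransferase gene, mt-Nd3, a mitochondrially encoded subunit of respiratory complex I, and Syt9, a synaptotagmin gene. Likeness was the root mean square difference of log2 CPM, each gene centred on its own mean, among 13790 protein-coding genes, and it was 0.204 for St3gal5, 0.204 for mt-Nd3 and 0.206 for Syt9. St3gal5 was at 4.21 to 6.26 CPM in WT, 8.05 CPM in dKO replicate 1 and 3.41 CPM in the library labelled dKO replicate 4. The 3 genes were picked for this likeness, so their following the spread of Ren1 among the libraries is given by the choice. None of the 3 passed the threshold in edgeR (adjusted p between 0.831 and 0.984). As Ren1 did not pass either, the choice also makes this likely, and it is no separate result.

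Angiotensin-converting enzyme makes angiotensin II on endothelium and on the proximal tubule brush border. Ace (ENSMUSG00000020681, chromosome 11, 105967945 to 105989964, plus strand) was at 508, 422, 437 and 424 CPM in WT replicates 1 to 4 and at 154, 344, 314 and 336 CPM in the dKO libraries. Every dKO library was below every WT library, and dKO replicate 1 was below the other 3 dKO libraries by a wide margin. Ace was the 1 member of 7 tested whose groups did not overlap, against 12.1% of all tested genes, or 6.06% in the lower direction. The means were 448 ± 40.7 CPM in WT and 287 ± 89.7 CPM in dKO (SD, n = 4 each). The log2 fold change was -0.64 with a 95% interval from -1.14 to -0.14, and the adjusted p was 0.183 (unadjusted p = 0.0169, edgeR quasi-likelihood test with Benjamini-Hochberg adjustment), so Ace did not pass the threshold with all 8 libraries.

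Leaving out dKO replicate 1 made the difference smaller and the test pass. The log2 fold change was then -0.44 with a 95% interval from -0.63 to -0.24 and the adjusted p was 0.0173 (edgeR), 1 of 7 members past the threshold against 3.9% of 16110 genes, or 2.02% in the lower direction. Without the library labelled dKO replicate 4 as well, the log2 fold change was again -0.44, with an adjusted p of 0.0513 in edgeR. Over 18 alternative settings the log2 fold change ran from -0.74 to -0.44 and the adjusted p from 0.0173 to 0.329, and 1 of the 18 passed. An antisense gene, Gm11651, overlaps Ace, but the table holds 2 reads for it in all.

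Ace was then set against other transcripts of the proximal tubule, as log2 CPM minus the median of a list. Against 9 genes of segments S1 and S2, Ace was at -0.95 ± 0.08 in WT and -1.54 ± 0.38 in dKO, a difference of -0.59 (two-sided exact permutation test p = 0.0286, the smallest possible, and 0.114 after adjustment over 4 genes). Against 5 genes of segment S3, a reference chosen after seeing the data, Ace was at 0.04, 0.04, -0.33 and -0.21 in WT and at 0.19, -0.27, -0.31 and 0.00 in dKO, with means of -0.12 ± 0.19 and -0.10 ± 0.23. The groups overlapped and the difference was 0.02 (two-sided exact permutation test p = 0.886). Against 9 other brush border enzymes the difference was -0.52 (two-sided exact permutation test p = 0.0571). The sum of the S3 genes, like Ace, was lower in each dKO library than in each WT library, but its genes went both ways: 2 of 5 had a positive log2 fold change, 1 had all dKO below all WT libraries, and 0 passed the threshold in edgeR (2 at an unadjusted p under 0.05). Without dKO replicate 1, Cyp7b1 passed it upward and Atp11a downward, where 303 and 325 of 16110 genes did so. The sum of the brush border enzymes was likewise lower in each dKO library (2854 CPM in dKO replicate 1 and 4876 to 5117 in the others) than in each WT library (5215 to 5719), with 4 of the 9 genes positive and 5 negative. Of these 9, 3 had all dKO below all WT libraries and 1 the reverse, and 0 passed in edgeR (5 at an unadjusted p under 0.05). Over all tested genes, 2667 of 15912 were at an unadjusted p under 0.05 in edgeR, and 6.06% had no overlap in each direction. Treh passed downward without dKO replicate 1, and Xpnpep2 upward without that library and the library labelled dKO replicate 4 together. In these fits 325 of 16110 genes passed downward and 233 of 16388 upward. The difference of Ace thus depended on the reference, and the part of these other proximal tubule transcripts in the Ace value was not tested.

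Of the S1 and S2 genes, Slc22a8, the organic anion transporter OAT3, was past the threshold: its mean rose from 406 ± 30.8 in WT to 609 ± 55.8 CPM, a log2 fold change of 0.58 (adjusted p = 0.018, edgeR). This call was lost without WT replicate 2, 3 or 4, with adjusted p between 0.0571 and 0.0704 in edgeR. Without dKO replicate 1, Slc5a2 of the same list passed upward as well. Over all tested genes, 184 of 15912 passed upward with all libraries and 303 of 16110 without dKO replicate 1. With all libraries, 5 of the 9 genes had a positive and 4 a negative log2 fold change. Of the 9, 2 had all dKO above all WT libraries, against 6.06% of all tested genes, and 0 the reverse. The 9 genes together made up 14900 to 16800 CPM in the WT libraries. dKO replicate 1 had 12035 CPM and the rest of the dKO group 14933 to 15733.

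Neprilysin and aminopeptidase A are brush border peptidases that process angiotensins: neprilysin makes angiotensin-(1-7) from angiotensin I, and aminopeptidase A trims angiotensin II to angiotensin III. Mme, which encodes neprilysin (ENSMUSG00000027820, chromosome 3, 63241537 to 63386030, plus strand), was at 146, 115, 165 and 140 CPM in WT and 195, 156, 140 and 166 CPM in dKO. The ranges overlapped, with the highest value in dKO replicate 1, where Ace was lowest. For Mme the log2 fold change was 0.22 with a 95% interval from -0.07 to 0.50 (adjusted p = 0.439, edgeR). Enpep, which encodes aminopeptidase A (ENSMUSG00000028024, chromosome 3, 129269175 to 129332720, minus strand), was at 162, 160, 167 and 183 CPM in WT and 177, 236, 209 and 163 CPM in dKO. dKO replicates 2 and 3 were above all WT libraries, and the other 2 dKO libraries were within the WT range. For Enpep the log2 fold change was 0.22 with a 95% interval from -0.04 to 0.48 (adjusted p = 0.377, edgeR), and without dKO replicate 1 and the library labelled dKO replicate 4 it was 0.41 (adjusted p = 0.0510, edgeR). A processed pseudogene, Gm42628, lies on the other strand within Enpep, with 42 reads in all.

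Set against the S1 and S2 list, Mme was higher in dKO by 0.34 and Enpep by 0.33 on the log2 scale, and neither difference passed a two-sided exact permutation test (p = 0.229 and 0.143). Agt differed by -0.75 on the same scale (two-sided exact permutation test p = 1), with the other 3 dKO libraries above and dKO replicate 1 far below WT. Against the brush border enzymes Mme was higher by 0.41 and Enpep by 0.40 (two-sided exact permutation test p = 0.0571 each, 0.0762 after adjustment over 4 genes). Set against the S3 list, the reference chosen after seeing the data and one whose own sum was lower in dKO, Mme was higher in dKO by 0.95 and Enpep by 0.94, with no overlap between the groups (two-sided exact permutation test p = 0.0286 each, 0.0571 after adjustment over 4 genes). For Mme this value lay between -1.83 and -1.74 in WT, was 0.53 in dKO replicate 1 and lay between -1.47 and -1.02 in the other dKO libraries.

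The AT1 receptor of the mouse is encoded by a pair of near copies, of which Agtr1a is the main one in kidney and vessels and Agtr1b is known mainly from the adrenal gland and pituitary. Agtr1a (ENSMUSG00000049115, chromosome 13, 30336441 to 30382867, plus strand) was at 48.1, 40.5, 37.0 and 46.9 CPM in WT and 45.0, 40.9, 45.9 and 46.2 CPM in dKO. All 4 dKO libraries were within the WT range, dKO replicate 1 included. The means were 43.1 ± 5.24 and 44.5 ± 2.46 CPM (SD, n = 4 each), and the log2 fold change was 0.05 with a 95% interval from -0.17 to 0.26 (adjusted p = 0.874, edgeR). On the linear scale that interval runs from 0.889-fold to 1.20-fold, among the narrower ones of the members.

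Agtr1b (ENSMUSG00000054988, chromosome 3, 20314473 to 20367177, minus strand) had 0, 1, 2 and 4 reads in WT replicates 1 to 4 and 0 reads in each dKO library. It did not pass the filter on low counts, so 7 of the 8 members were tested. Fitted with no filter, it had an unadjusted p of 0.0191 and an adjusted p of 0.267 (edgeR with Benjamini-Hochberg adjustment). Of the 2989 WT reads of both receptors 7 were Agtr1b, and of the 3703 dKO reads 0 were, which allows a share of up to 0.081% (3 reads, counting error only). The share of Agtr1b in the summed FPKM of both was 0.319 ± 0.285% in WT and 0% in dKO (two-sided exact permutation test p = 0.143). A difference in Agtr1b was thus not resolved, because the WT libraries themselves ran from 0 to 4 reads. Reads that match both copies may not have been counted for either. The adrenal genes in the table, 5 of the 8 listed, summed to 3.97 to 6.18 CPM in WT and 5.35 to 6.24 CPM in dKO, and the defining genes Cyp11b1, Cyp11b2 and Nr5a1 had no entry.

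Atp6ap2 encodes the prorenin receptor, which is also an accessory subunit of the vacuolar proton pump, and lies on the X chromosome (ENSMUSG00000031007, 12587801 to 12617049, plus strand). It was at 108, 114, 111 and 99.8 CPM in WT and 125, 98.7, 110 and 110 CPM in dKO. dKO replicate 1 was the highest of the 8 libraries and dKO replicate 2 the lowest. The log2 fold change was 0.04 with a 95% interval from -0.15 to 0.23 (adjusted p = 0.882, edgeR). Without dKO replicate 1, the library with Xist reads, it was -0.02. Between the library labelled dKO replicate 4, where intercalated cell genes were at the WT level or above, and dKO replicates 2 and 3, where they were low, Atp6ap2 was at 110 CPM against 98.7 and 110 CPM.

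**Figure D1:**
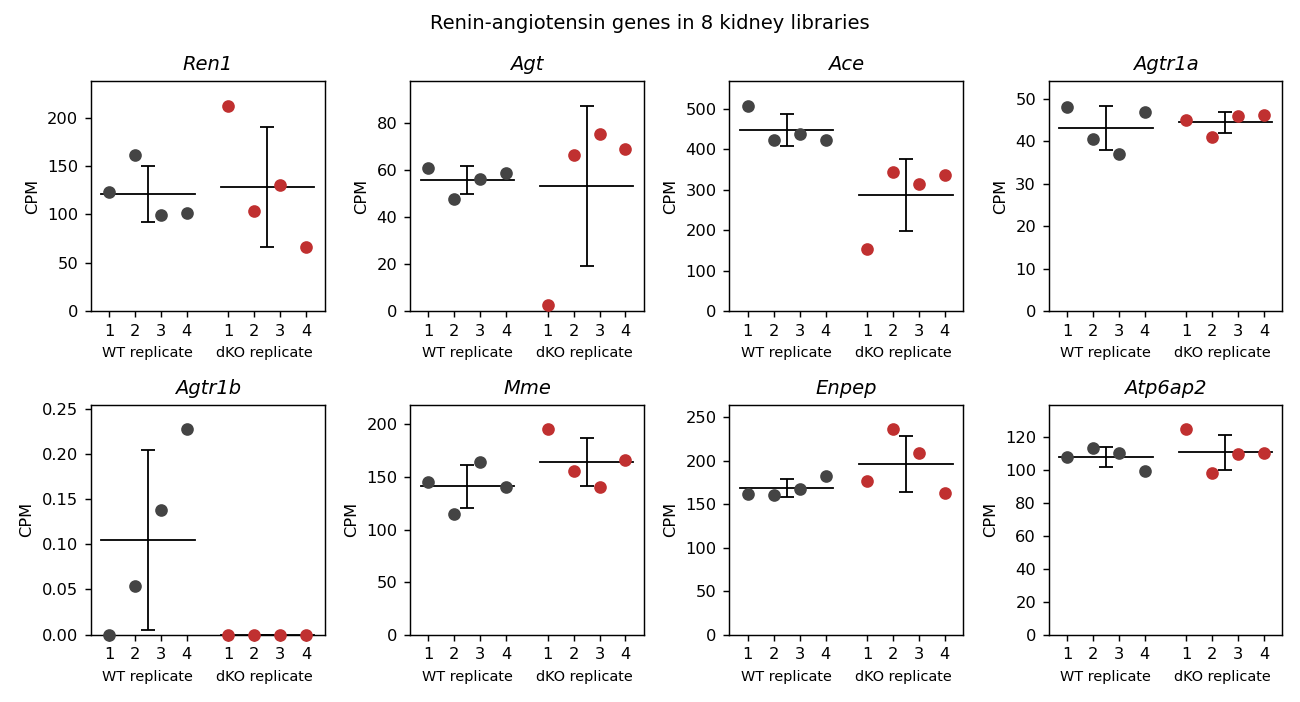
CPM (vertical axes, from 0) of the 8 members in the 4 WT libraries (grey) and the 4 dKO libraries (red), with the mean (horizontal line) and SD (bar) of each group. dKO replicate 1 is lowest for Agt (2.43 CPM) and Ace (154 CPM) and highest for Ren1 (212 CPM), and all 4 dKO libraries are below WT for Ace.

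Levels of different genes were compared per length, from the deposited FPKM. In WT, Ace (84.6 ± 7.49 FPKM) and Ren1 (73.1 ± 17.5) led, followed by Atp6ap2 (41.3 ± 2.37), Enpep (35.7 ± 2.16), Agt (29.4 ± 3.01), Agtr1a (15.5 ± 1.84) and Mme (12.2 ± 1.75), with Agtr1b far below at 0.0487 FPKM (SD, n = 4). Ranges overlapped between Ace and Ren1, between Atp6ap2 and Enpep, and between Agtr1a and Mme. Within libraries, Ren1 was above Ace only in WT replicate 2 (97.6 against 80.0 FPKM). Enpep was above Atp6ap2 only in WT replicate 4 (38.8 against 38.0). Mme was above Agtr1a only in WT replicate 3 (14.3 against 13.3). The differences within these pairs were not tested. In dKO the order was Ren1 (76.9 ± 37.3), Ace (54.0 ± 16.9), Atp6ap2 (42.1 ± 4.07), Enpep (41.5 ± 6.92), Agt (27.9 ± 17.9), Agtr1a (15.9 ± 0.884) and Mme (14.2 ± 1.98), with Agtr1b at 0. Every neighbouring pair among the first 7 overlapped there. Ren1 was above Ace in dKO replicates 1 and 3 and below it in the remaining dKO libraries, so the exchange at the top was not constant.

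**Figure D2:**
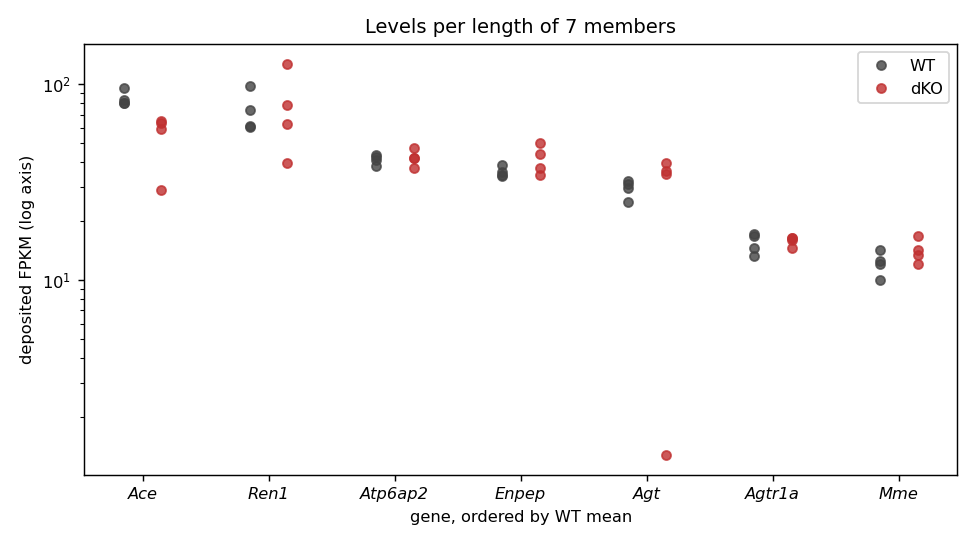
Deposited FPKM (vertical log axis) of 7 members in 4 WT (grey) and 4 dKO (red) libraries, ordered by the WT mean; Agtr1b, at 0 in 5 libraries, is left out. Ace is lower in every dKO library than in WT, and 1 dKO library has Agt at 1.28 FPKM.

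Of the 7 members tested, 0 passed the threshold with all 8 libraries, against 2.28% of all 15912 tested genes. An unadjusted p under 0.05 in edgeR was held by 1 member (Ace) and by 2667 of the 15912 genes. DESeq2 called 0 members, against 6.1% of all tested genes, and limma-voom 0, against 2.15%. Without the library labelled dKO replicate 4, 0 members passed, against 2.11% of all genes. Without that library and dKO replicate 1 together 0 passed, against 3.19%. In that last fit 3 members were at an unadjusted p under 0.05 in edgeR, as were 2117 of all 16388 genes. The median log2 fold change of the 7 was 0.05, against 0.01 over all tested genes. Without dKO replicate 1, dKO replicates 2 and 3 and the library labelled dKO replicate 4 did not overlap WT for 2 of the 7, Agt above and Ace below, against 14.9% of all tested genes (7.42% higher, 7.44% lower).

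**Figure D3:**
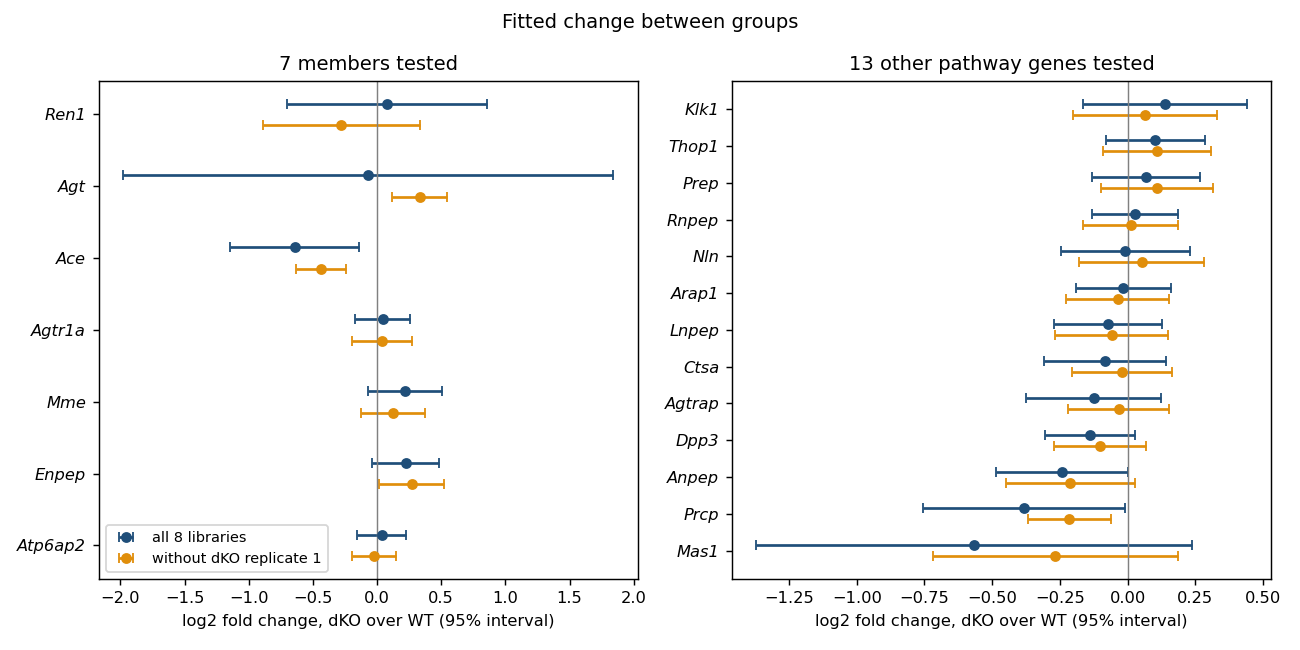
Log2 fold change of dKO over WT (horizontal axes) with its 95% interval, from edgeR, with all 8 libraries (blue) and without dKO replicate 1 (orange), for the 7 tested members (left) and 13 other genes of the pathway (right). The interval of Agt narrows from -1.98 to 1.84 to 0.12 to 0.55, and that of Ace moves from -1.14 to -0.14 to -0.63 to -0.24.

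The deviations from the WT mean show how the members differed within dKO replicate 1. There Agt was lower by 4.51 log2 units and Ace by 1.54, while Ren1 was 0.84 higher, Mme 0.48, Atp6ap2 0.21, Agtr1a 0.07 and Enpep 0.07. The library labelled dKO replicate 4 was lowest for Ren1, at -0.85 from the WT mean, although its Agt (0.31) and Ace (-0.41) deviations were close to those of dKO replicates 2 and 3. In dKO replicate 1 Aqp2, the water channel of principal cells, reached 1234 CPM, where the remaining dKO libraries had 339 to 408 and WT libraries 225 to 314. The part of these differences between libraries in the members' values was not tested. Of 14481 genes, 2.02% were as far up as Ren1 in dKO replicate 1 relative to the mean of the other 3 dKO libraries, or further, and 3.39% as far down as Ace.

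**Figure D4:**
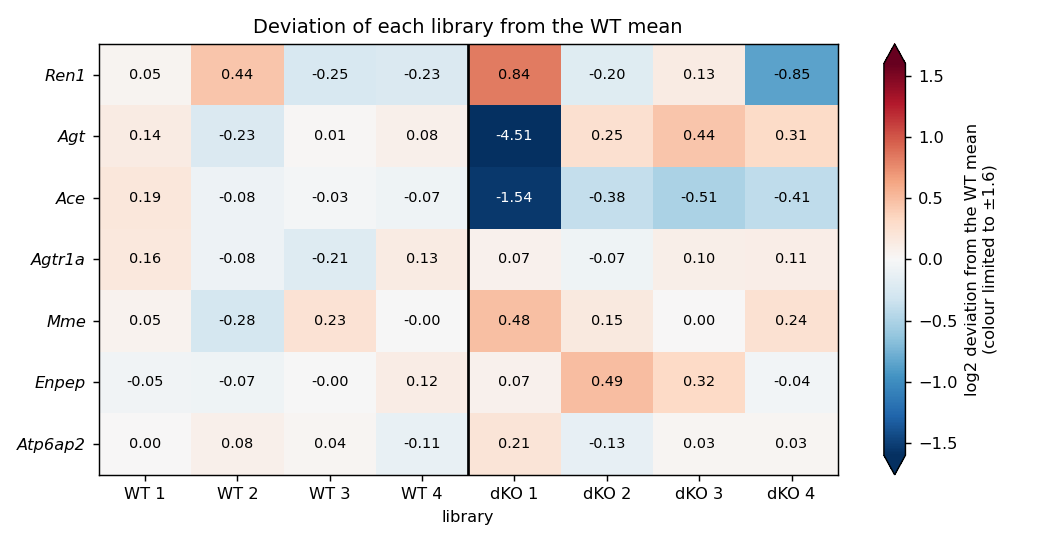
Log2 deviation of each of the 8 libraries (columns) from the WT mean for the 7 tested members (rows), with the value in each cell and colour limited to a set range. The largest are Agt (-4.51) and Ace (-1.54) in dKO replicate 1, and Ren1 in dKO replicate 1 (0.84) and in the library labelled dKO replicate 4 (-0.85).

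The rest of the pathway was described from a list of 21 genes: other peptidases that make or break angiotensins, other receptors and their partners. Of these, 19 had an entry and 14 passed the filter, of which 4 had a positive and 10 a negative log2 fold change, with a median of -0.08. None of the 14 passed the threshold in edgeR (0 called, 2 with an unadjusted p under 0.05), DESeq2 or limma-voom. Over all tested genes these tools called 2.28%, 6.1% and 2.15%. An unadjusted p under 0.05 in edgeR was held by 2667 of all 15912 tested genes. The most abundant 4 per length were Klk1, Ctsa, Anpep and Agtrap. Klk1, tissue kallikrein of the connecting tubule, averaged 1261 ± 46.3 CPM in the WT group and 1387 ± 251 in the dKO group, with a log2 fold change of 0.14 (adjusted p = 0.674, edgeR). Ctsa, the lysosomal carboxypeptidase cathepsin A, was at 367 ± 29.7 and 346 ± 34.6 CPM, and Anpep, the brush border aminopeptidase N that cuts angiotensin III, at 282 ± 36.5 and 238 ± 18.6 CPM. Agtrap, which binds the AT1 receptor and promotes its internalisation, was at 142 ± 9.71 and 130 ± 19.8 CPM.

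Prcp, which encodes a lysosomal carboxypeptidase that converts angiotensin II to angiotensin-(1-7), was named after its values were seen, as the 1 gene of the list whose groups did not overlap. That is 1 of 14 tested, against 12.1% of all tested genes, or 6.06% in the lower direction. It was at 68.8, 71.4, 68.8 and 69.6 CPM in WT and 33.5, 58.1, 61.2 and 60.9 CPM in dKO, again lowest in dKO replicate 1. The log2 fold change was -0.38 (adjusted p = 0.282, edgeR). In dKO replicate 1 the list had 8 of 19 genes at the lowest value of the 8 libraries and 1 at the highest. The 19 include the 5 genes below the filter. This count was not taken over all genes, and that library also stood apart in other lists. It is therefore not read as a trait of the pathway. The 5 genes below the filter were the type 2 receptor Agtr2, with 3 reads in WT and 9 in dKO, and the mast cell and neutrophil protease genes Cma1 (2 and 5), Mcpt4 (0 and 2), Cpa3 (2 and 6) and Ctsg (0 and 2). At these depths no difference between the groups was detectable for them.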

How the data were processed

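Whole-kidney poly(A) RNA of 4 WT and 4 dKO libraries was sequenced. Per the labels, HISAT2 2.0.4 was the aligner and HTSeq 0.9.1 the counter that the authors used, and the strandedness of counting and the genome build are not given in the sources used here. In the deposited table are raw counts for each gene. It also has a signal, which the authors obtained by dividing counts by library size factors, and deposited FPKM, relative to gene length and library size. The log2 fold changes and p-values that the authors deposited, the gene lengths and the group means were not used. Of 26893 identifiers, 26878 are in GENCODE M21 (GRCm38), 26830 of them overlapping its position, and all 8 members were at identical positions, printed as deposited.

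From the counts, 15912 genes passed a filter on low counts (filterByExpr, edgeR 4.0.16, minimum 10, in total 15). dKO was compared with WT by the edgeR quasi-likelihood test (robust, TMM, two-sided, R 4.3.3), with Benjamini-Hochberg adjustment over all tested genes and a threshold of 0.05. Single values per library were compared by an exact permutation test over the 70 arrangements. Levels between genes were compared by FPKM. Alternatives were DESeq2 1.42.0 and its size factors, limma-voom (limma 3.58.1), other filters, log2 FPKM after adding 1 or 0.1, and libraries left out singly or dKO replicates 1 and 4 together, 18 in all for the fitted changes. The test was checked on simulated data. Total counts ran from 14791687 to 24973213, and floors cover counting error only. Named were all 8 members, from the other pathway genes those past the threshold or else the 4 with the highest FPKM, the 3 genes most like Ren1, and cell type genes past the threshold. The members and lists were chosen with earlier results of these data known. Promoter windows came from RefSeq. Of the other pathway genes, 1 is not reported here by name, with the comparison that needs it, though it stays in every test and count.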

Additional observations from a re-analysis of the deposited data

Results flagged for a closer look

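A library was looked at again where it stood apart from the other 3 of its group by more than Dixon's 95% critical value, among 32 groups of 4 values, of which chance alone gives about 1 in 20. Agt was at 2.43 CPM in dKO replicate 1, far below the other dKO libraries. Ace was at 154 CPM in dKO replicate 1, below the other dKO libraries. Agt relative to the proximal tubule S1 and S2 genes was at -8.03 on the log2 scale in dKO replicate 1, again the lowest of its group. All 3 values are from dKO replicate 1. The last rests on the same Agt reads as the first, so these groups are not separate from each other.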

How the results depend on the processing

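Calls of the members changed under 1 of the 18 alternatives: without dKO replicate 1, Ace was past the threshold, so that the count of members ran from 0 to 1 with each library left out in turn. The count of other pathway genes past the threshold was 0 throughout. Over all genes the count was 363, 971 with DESeq2, and 138 to 628 with 1 library left out, lowest without WT replicate 4 (138) and highest without dKO replicate 1 (628). It was 225, 143 and 141 without WT replicates 1, 2 and 3. Relative to the proximal tubule S3 list, Ace differed by 0.019 in place of -0.59.

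Directions turned for small changes. Ren1 was at -0.026 with limma-voom and at -0.025 and -0.026 with FPKM and 1 or 0.1 added, and ran from -0.28 to 0.30 with 1 library left out. St3gal5 was at -0.028 with limma-voom, at -0.025 and -0.054 with FPKM, and ran from -0.29 to 0.17. Agt was at -0.92 with limma-voom and at -0.69 and -0.86 with FPKM, in place of -0.07, with adjusted p of 0.683 to 0.737 in limma. With 1 library left out, Agt ran from -0.29 to 0.33, Agtr1a from -0.021 to 0.10, Atp6ap2 from -0.025 to 0.091, mt-Nd3 from -0.045 to 0.29 and Syt9 from -0.34 to 0.13. Without dKO replicates 1 and 4 together, Ren1 was at -0.049, Agt at 0.35, Atp6ap2 at -0.050, Klk1 at -0.031, Ctsa at 0.00095 and St3gal5 at -0.18. Slc22a8 kept its direction under all 18, with an adjusted p of 0.0571 to 0.0704 in edgeR without WT replicate 2, 3 or 4. The cause of these shifts was not tested. No paired analysis was possible because no label links a WT library to a dKO library. Low read counts limit Agtr1b and the 5 untested pathway genes.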
